A study of Mus musculus with 12 samples.

Results

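Collagen chain genes were taken as every protein-coding gene of the count table whose name is Col, a type number, the letter a and a chain number, which gave 44 genes of 54446 rows and 21969 protein-coding rows. They were sorted by the structure of the collagen they build into 11 fibrillar chains, 9 basement membrane chains, 9 FACIT chains (fibril-associated collagens with interrupted triple helices) and 15 other chains. RNA was sequenced from NIH3T3 cells, a mouse embryonic fibroblast line (wild type), and from ΔN-VEGF cells, derived from NIH3T3 with Cas9 and donor cassettes that remove the coding sequence of N-VEGF, an amino-terminal extension of VEGF-A. Each line was kept for 16 h in normoxia or in hypoxia below 0.2% oxygen, with 3 samples in each of the 4 groups. The deletion line was grown from selected clones, and the sources used here do not say which clone or clones gave the RNA, so that the deletion and the clone cannot be told apart. Counts per gene over Vegfa do not show the deletion, since they sum reads over the whole gene.

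Collagens are triple helices of alpha chains, and fibroblasts are a main source of them. Type I and type III collagen form the fibrils of loose and dense connective tissue, type V collagen sets the diameter at which fibrils start, and FACIT collagens sit on the surface of fibrils. Type IV collagen forms the network of basement membranes, and type VI collagen forms beaded filaments near both. The chains of one heterotrimer are usually made together, and prolyl and lysyl hydroxylases, which need oxygen, modify them before they leave the cell.

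Total gene counts were 30519052 to 43056690 per sample. All values below are CPM, counts relative to library size after TMM scaling (a scaling that assumes most genes do not change), and a gene was called at a Benjamini-Hochberg adjusted p below 0.05 in edgeR's quasi-likelihood test over 14724 tested genes. Fibroblast markers summed to 15110 to 18830 CPM in wild-type normoxia, 23650 to 25340 in wild-type hypoxia, 16880 to 17500 in ΔN-VEGF normoxia and 33410 to 34750 in ΔN-VEGF hypoxia, mostly through Vim and Fn1. They did not move as 1 list, since Pdgfrb fell in hypoxia in both lines (log2 fold changes -1.94 and -1.44, edgeR adjusted p = 0.00019 and 0.00075) where Vim rose (1.20 and 1.53, edgeR adjusted p = 0.00038 and 4.1e-05). The epithelial markers summed to at most 2.42 CPM, with Epcam at 0 in every sample. Of the endothelial markers Kdr was at 0 in 11 of 12 samples, and of the leukocyte markers Ptprc was at 0.0685 CPM or less. The summed endothelial markers were higher in hypoxia, at 5.91 to 8.05 CPM in wild-type and 20.3 to 25.1 CPM in ΔN-VEGF cells against 1.81 to 4.23 CPM in normoxia, almost wholly through Cdh5. The leukocyte sum was 35.5 to 59.0 CPM against 4.85 to 13.03 CPM, mostly through Csf1r, with Adgre1 at 0.0385 CPM or less. Smooth muscle markers summed to 168 to 1018 CPM in normoxia and 2497 to 3125 CPM in hypoxia over both lines, almost wholly through Acta2. Chondrocyte markers summed to 118 to 122 CPM in ΔN-VEGF hypoxia and 125 to 227 CPM in ΔN-VEGF normoxia. In the wild type they overlapped, at 147 to 158 CPM in hypoxia and 157 to 219 CPM in normoxia, almost wholly through Sox9 in both lines. The part of these markers in the collagen values was not tested.

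Replicate 2 of wild-type normoxia stood apart and is treated separately throughout. Its log2 CPM correlated at 0.956 and 0.957 with the other replicates of its group, which correlated at 0.996 with each other, and at 0.984 with replicate 2 of ΔN-VEGF normoxia and 0.976 and 0.975 with replicates 1 and 3 of that group, all above its correlation with its own group. Replicate 2 of ΔN-VEGF normoxia also stood apart, though less, at 0.986 with its partners, which correlated at 0.996, and at a chi-square per gene of 83.3 and 77.7 against 4.15 between them. Rhox5, a homeobox gene chosen after its values were seen because it separates the lines, had 4.30 CPM in this library, 3.63 to 4.37 CPM in the other wild-type libraries and 56.8 to 87.5 CPM in ΔN-VEGF libraries. A gene chosen this way gives no independent check of the label. Collagen genes were unusual within it. Of the 18 chains with a group mean of at least 10 CPM, 17 were lower than in both other replicates, against 45.8% of all tested genes, and 9 were over 2-fold lower than the mean of the others, against 15.2% of all tested genes, which were not matched to these chains on abundance. Of all 29 tested chains, 21 were below both other replicates, 4 above both and 11 over 2-fold lower. In the same library Acta2, the smooth muscle actin of myofibroblasts, which was singled out after its values were seen, was at 1014 CPM against 180 and 161 CPM, and Pdgfra, a receptor of fibroblasts singled out likewise, was at 168 CPM against 927 and 908 CPM. Neither list moved as a whole. Of the 8 fibroblast markers 5 were below both other replicates (Pdgfra, Pdgfrb, Thy1, Prrx1 and Fn1) and 3 above, among them Vim at 8387 against 5159 and 4925 CPM. Of the 4 smooth muscle markers Acta2 and Cnn1 were above both, while Des was below at 1.53 against 5.78 and 5.80 CPM and Myh11 at 0.0697 against 0.342 and 0.270 CPM. The part of either in the collagen values was not tested.

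Of the 44 genes, 29 passed the filter on low counts and were tested, namely 8 fibrillar, 8 basement membrane, 6 FACIT and 7 other chains. The other 15 never exceeded 11 counts in any sample, and the FACIT chains Col9a1 and Col19a1 were at 0 in every sample. Among those 15 were Col2a1 and Col11a1, fibrillar chains of cartilage, Col4a3 of specialised basement membranes, and Col6a4, Col6a5 and Col6a6, the additional chains of type VI collagen.

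Together the collagen genes took about 1 to 2 percent of all gene counts. In wild-type normoxia the share was 2.13%, 0.768% and 2.06% in replicates 1, 2 and 3. In wild-type hypoxia it was 1.16%, 1.27% and 1.18%, in ΔN-VEGF normoxia 1.36%, 1.43% and 1.35%, and in ΔN-VEGF hypoxia 2.37%, 2.22% and 2.23%. The 3 hypoxic ΔN-VEGF samples thus lay above every other sample, and replicate 2 of wild-type normoxia lay below all. After TMM scaling the sums were 26650 to 28510 CPM in ΔN-VEGF hypoxia, 11990 to 13550 in ΔN-VEGF normoxia, 11950 to 13250 in wild-type hypoxia and 18000, 7589 and 17060 in wild-type normoxia. Since these are bulk samples, fewer cells that make a collagen and less RNA for it per cell cannot be told apart. Type I and type VI chains carried much of the sum, with Col1a2, Col6a1 and Col6a2 together taking 41.7% to 63.1% of the collagen counts of a sample.

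**Figure D1:**
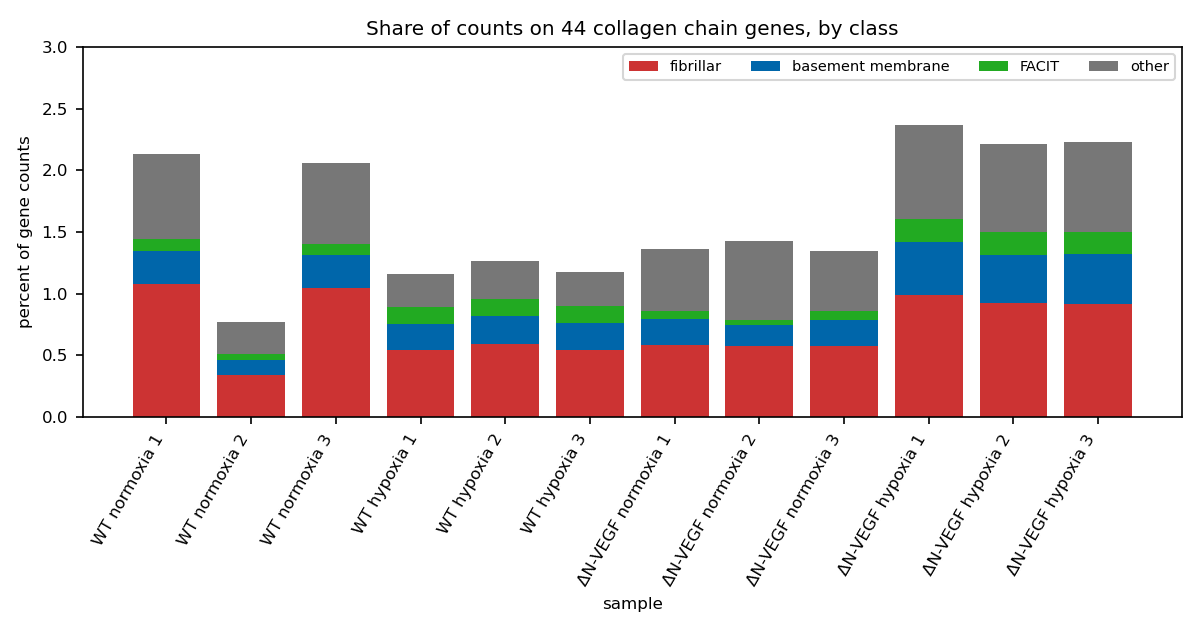
Share of all gene counts on the 44 collagen chain genes, in percent (y axis), for each of the 12 samples (x axis), stacked by class. The share was 2.22% to 2.37% in ΔN-VEGF hypoxia, 1.16% to 1.43% in wild-type hypoxia and ΔN-VEGF normoxia, and 0.768% in replicate 2 of wild-type normoxia.

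Per kilobase of exon (the union of exons over all annotated transcripts, so that a gene with long rare isoforms is understated), Col6a1 was the highest collagen gene in all 4 groups, at 465 ± 210 CPM per kb in wild-type normoxia and 1187 ± 28.8 in ΔN-VEGF hypoxia (SD, n = 3). Col1a2 followed in wild-type normoxia at 285 ± 117 CPM per kb, then Col3a1 at 162 ± 110, Col6a2 at 157 ± 65.6 and Col1a1 at 154 ± 74.1, which did not differ beyond their spread. In ΔN-VEGF hypoxia the next genes were Col1a1 at 442 ± 25.9 CPM per kb and Col1a2 at 430 ± 17.7, then Col4a2 at 348 ± 15.7 and Col4a1 at 334 ± 12.5. The ranges of each pair overlapped over the samples. Within each sample Col1a1 was above Col1a2 (ratios 1.05, 1.03 and 1.01) and Col4a1 below Col4a2 (ratios 0.95, 0.96 and 0.96). Col3a1 ranked 3 in wild-type normoxia, 11 in wild-type hypoxia, 10 in ΔN-VEGF normoxia and 9 in ΔN-VEGF hypoxia. Col12a1 per kb was 0.467 ± 0.0690 in wild-type normoxia and 9.41 ± 0.158 in ΔN-VEGF hypoxia.

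The first comparison asks how collagen genes responded to hypoxia in wild-type fibroblasts. Of the 29 tested chains 6 rose and 5 fell, or 37.9%, where 36.5% of all tested genes were called. The risers were the type V chains Col5a1 and Col5a2, the FACIT chains Col12a1, Col16a1 and Col20a1, and Col10a1, a network-forming chain of hypertrophic cartilage. The fallers were Col3a1, Col27a1, Col4a6, Col6a3 and Col8a1. The median log2 fold change was 0.31 over the tested chains and -0.07 over all tested genes. Normoxic and hypoxic samples did not overlap for 11 of the 29 chains, as for 45% of all tested genes. Without replicate 2 of wild-type normoxia 6 rose and 12 fell, where 27.1% of all genes rose and 26.9% fell, or 54% in either direction, and all 11 calls were among them. Scaled by total counts alone, 4 rose and 7 fell, where 45.6% of all genes were called, with the median of all genes at -0.30.

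In ΔN-VEGF cells hypoxia raised 18 of the 29 chains and lowered 5, where 26.9% of all tested genes rose and 26.4% fell, or 53.3% in either direction. The risers included 7 of 8 fibrillar chains, 5 of 8 basement membrane chains, 4 of 6 FACIT chains and 2 of 7 other chains. The median log2 fold change was 1.09 over the tested chains against -0.01 over all tested genes. Hypoxic and normoxic samples did not overlap for 26 of the 29 chains, as for 70.5% of all tested genes. Without replicate 2 of wild-type normoxia 20 of these 29 rose and 6 fell, where 32.8% of all genes rose and 34.3% fell, or 67.1% together. Scaled by total counts alone, 13 rose and 6 fell, where 59.8% of all genes were called, with the median of all genes at -0.41. The fit over the 6 ΔN-VEGF samples alone called 18 up and 6 down of 27 tested chains, where 67.6% of all genes were called.

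Between the lines in normoxia 2 chains were higher in ΔN-VEGF cells, Col12a1 and Col10a1, and 5 were lower, Col3a1, Col5a2, Col27a1, Col7a1 and Col15a1, where 1.39% of all tested genes were higher and 2.97% lower, or 4.36% together. The groups did not overlap for 7 of the 29 chains, as for 16.3% of all tested genes. Here the result depends on replicate 2 of wild-type normoxia: without it 2 were higher and 18 lower, where 25.7% of all genes were higher and 23.2% lower, or 48.9% together. In this comparison samples of the same number deviated together, and with replicate number as a block 2 chains were higher and 2 lower, Col3a1 (adjusted p = 0.077) and Col27a1 (adjusted p = 0.052, edgeR) being among those lost. The fit over the 6 normoxic samples alone called 0 chains, with 8 at an unadjusted p below 0.05, and with the block it also called 0, with 8 at an unadjusted p below 0.05 (edgeR). Of all genes 0.108% and 0.00718% were called in these fits at the adjusted threshold. No share of all genes was computed at the unadjusted one, so the 8 chains cannot be set against it. DESeq2 over all 12 samples, without the edgeR filter on low counts, called 2 higher and 8 lower of 42 chains. There 4.51% of all genes were called, a share over more genes of low count than those above.

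Between the lines in hypoxia 13 chains were higher in ΔN-VEGF cells and 3 lower, where 10.8% of all tested genes were higher and 9.36% lower, or 20.1% together. The groups did not overlap for 23 of the 29 chains, as for 59.8% of all tested genes. The 13 were Col1a1, Col1a2, Col3a1, Col5a1, Col5a2 and Col11a2 of the fibrillar class, Col4a1 and Col4a2, Col12a1 and Col14a1, and the 3 abundant type VI chains, and the 3 lower ones were Col4a6, Col9a3 and Col22a1. The comparison uses neither normoxia group, although they share its estimate of spread, and without replicate 2 of wild-type normoxia 17 were higher and 4 lower, where 21.2% of all genes were called in each direction, or 42.4% together. Scaled by total counts alone, 6 were higher and 4 lower, where 26.8% of all genes were called, the median of all genes then being -0.23. The fit over the 6 hypoxic samples alone called 18 higher and 6 lower of 28 tested, where 57% of all genes were called. With 1 sample left out, the call of Col1a2 was kept in 3 of 12 fits (adjusted p up to 0.13) and that of Col4a6 in 4 of 12 (adjusted p up to 0.11, edgeR), each being lost without any 1 of the 6 hypoxic samples.

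The interaction asks whether the response to hypoxia differed between the lines. It was called for 5 chains, all with the more positive log2 change in ΔN-VEGF cells, where 2.21% of all tested genes were called in that direction and 1.15% in the other, or 3.36% together. They were Col3a1, Col5a1, Col5a2, Col4a1 and Col4a2. In the other direction 0 chains were called by edgeR. At an unadjusted p below 0.05 (edgeR) there were 17 chains in the first direction and 3 in the other, and no share of all genes was computed at that threshold. DESeq2, without the edgeR filter on low counts and over 42 chains, called 14 in the first direction and 2 in the other. It called 4.91% of all genes in either. Without replicate 2 of wild-type normoxia 18 were called in the first direction and 2 in the other, where 21.4% and 23% of all genes were, or 44.4% together. Scaled by total counts alone, 2 chains were called in each direction, where 6.13% of all genes were called, with the median of all genes at -0.15. The hypoxia comparisons of the 2 lines share no samples with each other, but each line comparison shares its groups with them, so the 5 comparisons are not independent.

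**Figure D2:**
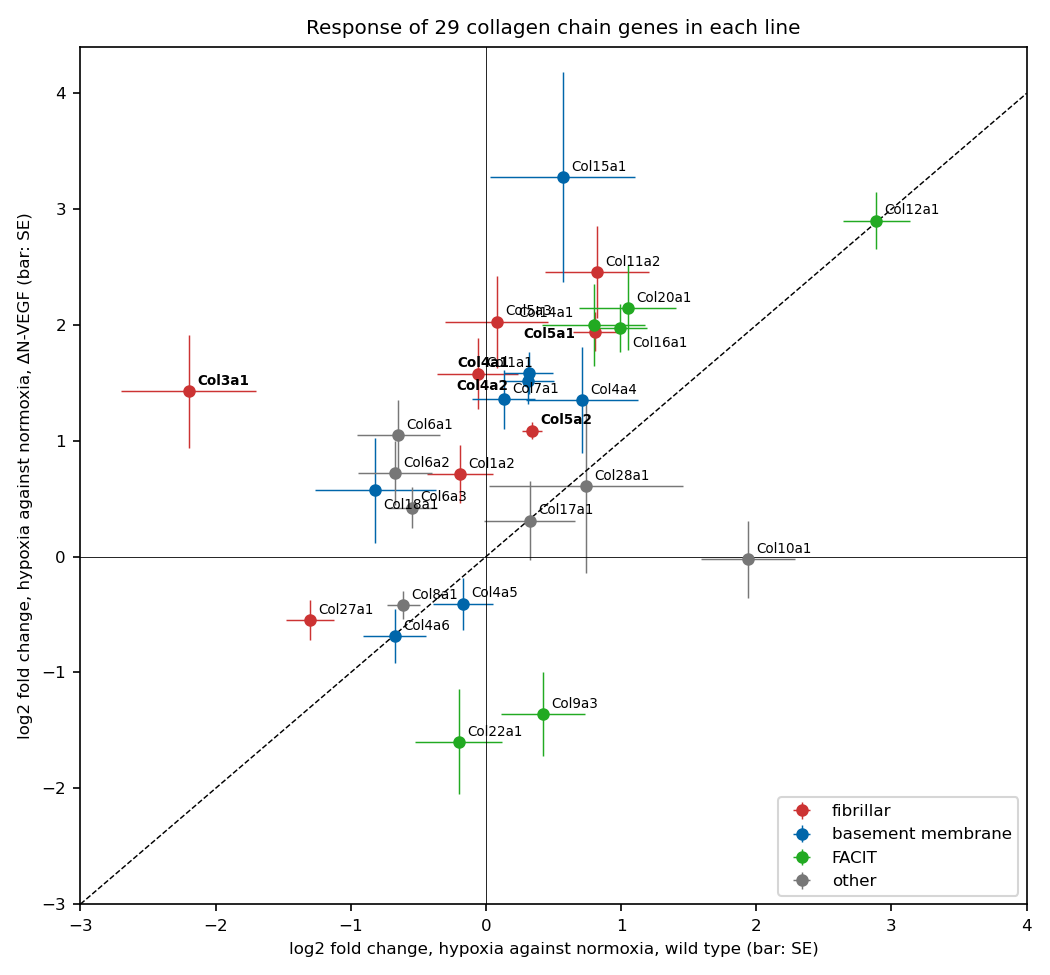
Log2 fold change of hypoxia against normoxia for wild-type samples (x axis) and ΔN-VEGF samples (y axis) for the 29 tested chains, with SE bars, coloured by class, with the 5 chains of a called interaction in bold. The dashed line marks equal change, and most chains lie above it, with Col3a1 at -2.20 on x and 1.43 on y and Col12a1 on the line at 2.89 and 2.90.

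Type I collagen, the main fibril former, is built of chains from Col1a1 (chromosome 11, 94936224 to 94953042, GRCm38) and Col1a2. Col1a1 had 1336, 454 and 1250 CPM in wild-type normoxia, 890, 1104 and 920 in wild-type hypoxia, 946, 1030 and 933 in ΔN-VEGF normoxia, and 3088, 2862 and 2755 in ΔN-VEGF hypoxia. The hypoxic ΔN-VEGF samples lay above all others, and the other groups overlapped one another. It rose 2.99-fold in ΔN-VEGF hypoxia (log2 fold change 1.58 ± 0.31 SE, adjusted p = 0.0013), and in hypoxia it was 2.99-fold higher than in wild-type fibroblasts (adjusted p = 0.0053, both edgeR). In wild-type cells the log2 fold change was -0.06 ± 0.30 (adjusted p = 0.89), and -0.41 (adjusted p = 0.0029) without replicate 2 of normoxia.

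Col1a2 had 4467, 1866 and 4277 CPM in wild-type normoxia, 3016, 3279 and 2997 in wild-type hypoxia, 3232, 3362 and 3171 in ΔN-VEGF normoxia, and 5589, 5243 and 5180 in ΔN-VEGF hypoxia. Again the hypoxic ΔN-VEGF samples were the highest and replicate 2 of wild-type normoxia the lowest. It rose 1.64-fold in ΔN-VEGF hypoxia (log2 fold change 0.71 ± 0.25 SE, edgeR adjusted p = 0.03), a call that was lost when any 1 of the 6 ΔN-VEGF samples was left out (adjusted p up to 0.079). The estimate of spread is shared by all 12 samples, and without replicate 2 of wild-type normoxia this log2 fold change was 0.705 (adjusted p = 4.3e-07, edgeR). The ratio of the partners per kilobase moved, since Col1a1 gained more than Col1a2. Col1a1 per Col1a2 was 1.05, 1.03 and 1.01 in ΔN-VEGF hypoxia, against 0.554, 0.580 and 0.557 in ΔN-VEGF normoxia, 0.558 to 0.638 in wild-type hypoxia and 0.460 to 0.566 in wild-type normoxia. The hypoxic ΔN-VEGF values did not overlap those of any other group, for which an exact two-sided permutation test of 3 against 3 samples can go no lower than 0.1. Such ratios within a sample do not depend on the scaling between samples.

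Type III collagen is made from Col3a1 alone and forms thin fibrils with type I. It had 2245, 336 and 2179 CPM in wild-type normoxia, 348, 348 and 341 in wild-type hypoxia, 378, 398 and 370 in ΔN-VEGF normoxia, and 1044, 1025 and 1011 in ΔN-VEGF hypoxia. Replicate 2 of wild-type normoxia had 0.152 of the mean of its partners and lay just below the wild-type hypoxia samples, so that these groups overlapped, while the 3 replicates of each other group were close together. Col3a1 fell 4.59-fold in wild-type hypoxia (log2 fold change -2.20 ± 0.50 SE, adjusted p = 0.0054) and rose 2.69-fold in ΔN-VEGF hypoxia (1.43 ± 0.49, adjusted p = 0.029). The difference between the responses was 3.62 (adjusted p = 0.023, edgeR), and 4.09 (adjusted p = 1.7e-11) without replicate 2 of wild-type normoxia. The interaction was kept in 2 of 12 fits that each left out 1 sample, those without a normoxia sample numbered 2 (adjusted p up to 0.081 in the others). In normoxia Col3a1 was 4.15-fold lower in the ΔN-VEGF line (adjusted p = 0.045, edgeR), although the groups overlapped through that replicate. In hypoxia it was 2.97-fold higher (edgeR adjusted p = 0.044), with no overlap. These line differences were kept in 1 and 3 of the 12 such fits, with adjusted p up to 0.15 and 0.13, and the rise in ΔN-VEGF hypoxia in 6, being lost without any 1 of the 6 ΔN-VEGF samples (adjusted p up to 0.076). The SE of each comparison rests on an estimate of spread shared by all 12 samples. Without replicate 2 of wild-type normoxia, which is not part of the ΔN-VEGF comparison, the rise in ΔN-VEGF hypoxia was 1.42 on the log2 scale (adjusted p = 2.1e-10, edgeR).

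Col3a1 lies beside Col5a2 on chromosome 1, on the opposite strand and 24614 bases away. Their responses differed in wild-type cells, where Col5a2 rose. Type V collagen, which is mixed into type I fibrils, uses chains from Col5a1, Col5a2 and, less often, Col5a3. Col5a2 had 374, 333 and 367 CPM in wild-type normoxia, 456, 443 and 464 in wild-type hypoxia, 272, 270 and 281 in ΔN-VEGF normoxia, and 590, 578 and 583 in ΔN-VEGF hypoxia. No 2 groups overlapped, and replicate 2 of wild-type normoxia had 0.900 of the mean of its partners, among the smallest shifts of the abundant chains. Col5a2 rose 1.27-fold in wild-type hypoxia (adjusted p = 0.0041) and 2.13-fold in ΔN-VEGF hypoxia (adjusted p = 7.2e-07). The interaction of 0.74 (adjusted p = 0.007, edgeR) held in all 12 fits that each left out 1 sample, with adjusted p up to 0.04, which held for none of the other 4 called chains.

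Col5a1 had 593, 352 and 554 CPM in wild-type normoxia, 835, 934 and 849 in wild-type hypoxia, 398, 352 and 378 in ΔN-VEGF normoxia, and 1510, 1439 and 1387 in ΔN-VEGF hypoxia. Both lines were higher in hypoxia without overlap, and the normoxia groups overlapped through replicate 2 of wild type. The rise was 1.75-fold in wild-type cells (adjusted p = 0.0026) and 3.85-fold in ΔN-VEGF cells (adjusted p = 3.6e-06), with an interaction of 1.14 (adjusted p = 0.028, edgeR, and up to 0.09 with 1 sample left out). Col5a1 per Col5a2, per kilobase, was 1.79, 1.19 and 1.71 in wild-type normoxia, 2.07 to 2.38 in wild-type hypoxia, 1.47 to 1.65 in ΔN-VEGF normoxia and 2.69 to 2.89 in ΔN-VEGF hypoxia, so that the ratio was higher in hypoxia in each line. Col5a1 overlaps 2 noncoding transcripts on the other strand, sharing 99 and 113 exonic bases with them, and the library kit does not mark strand.

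Col5a3 was less abundant, with 49.6, 12.6 and 49.3 CPM in wild-type normoxia, 36.5, 42.4 and 39.0 in wild-type hypoxia, 13.1, 17.9 and 12.4 in ΔN-VEGF normoxia, and 62.2, 58.0 and 56.4 in ΔN-VEGF hypoxia. Replicate 2 of wild-type normoxia matched the ΔN-VEGF normoxia level and not that of its own group. It rose 4.08-fold in ΔN-VEGF hypoxia (edgeR adjusted p = 0.0013), while in wild-type cells the log2 fold change was 0.08 ± 0.38 (adjusted p = 0.89) and turned to -0.33 (adjusted p = 0.046) without that replicate.

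Col27a1, a fibrillar chain of developing cartilage, went the other way. It had 27.7, 16.8 and 27.2 CPM in wild-type normoxia, 8.72, 10 and 10.4 in wild-type hypoxia, 13.4, 14.7 and 14.0 in ΔN-VEGF normoxia, and 10.1, 9.88 and 8.89 in ΔN-VEGF hypoxia. In each line hypoxic samples lay below normoxic ones. It fell 2.47-fold in wild-type (adjusted p = 0.00017) and 1.46-fold in ΔN-VEGF cells (adjusted p = 0.02, edgeR), the latter call being lost without replicate 2 of ΔN-VEGF normoxia or replicate 3 of ΔN-VEGF hypoxia. Col11a2, a minor chain of type XI collagen, was at 0.627 to 6.20 CPM and rose 5.49-fold in ΔN-VEGF hypoxia (edgeR adjusted p = 0.00037).

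**Figure D3:**
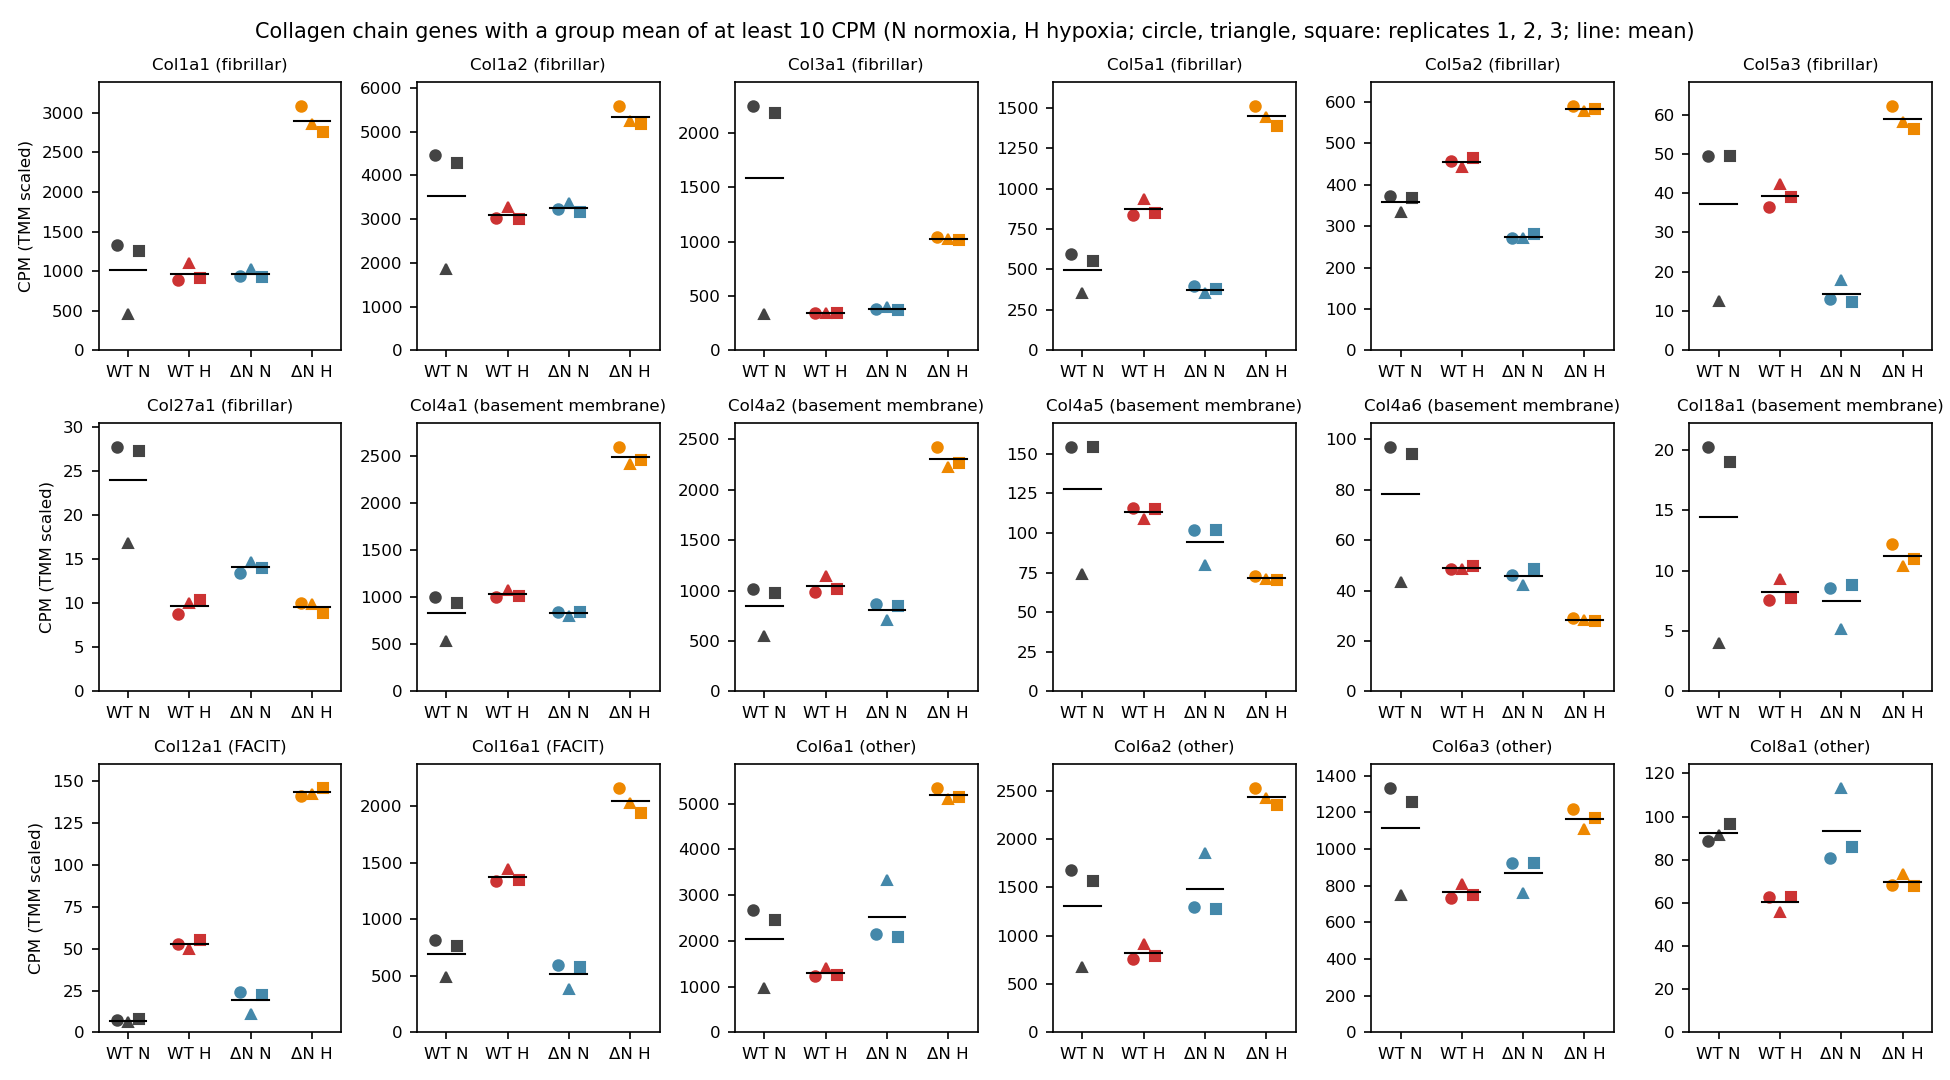
CPM after TMM scaling (y axis, from 0) for the 18 chains with a group mean of at least 10 CPM, in wild-type (WT) and ΔN-VEGF (ΔN) cells in normoxia (N) and hypoxia (H), with replicates 1, 2 and 3 as circle, triangle and square and the mean as a line. The triangle of wild-type normoxia lies below its partners in 17 panels, and in ΔN-VEGF hypoxia the 3 samples lie close together.

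Stretches upstream of Col3a1 and Col5a1 are shown as examples with a called interaction, that of Col5a3 for the largest rise of a type V chain in ΔN-VEGF hypoxia, and a short stretch for the shared start of Col4a1 and Col4a2. Promoter sequences from RefSeq (GRCm38.p6) were found for 35 of the 44 genes, 23 of them tested, and Col5a2 was not among them. The 250 bases before each start were searched on both strands for ACGTG and, in a separate pass, for GCGTG, which are the cores that hypoxia-inducible factors bind. The same windows were searched for the box of the letters CCAAT, a common promoter element, and for a TATA box, spelled out here as TATAAA. At least 1 of the hypoxia cores was found in 28.95% of 38 collagen promoters and 38.6% of 32851 promoters, the second box in 34.2% and 33.8%, and the last in 13.2% and 12.4%. These are matches of letters, and positions are those of the first base of the match, counted back from the base before the start. Capitals mark matches in the first 3 stretches, and the 22 bases by which the 2 genes overlap in the last.
Col3a1, chr1:45311288-45311537, plus strand: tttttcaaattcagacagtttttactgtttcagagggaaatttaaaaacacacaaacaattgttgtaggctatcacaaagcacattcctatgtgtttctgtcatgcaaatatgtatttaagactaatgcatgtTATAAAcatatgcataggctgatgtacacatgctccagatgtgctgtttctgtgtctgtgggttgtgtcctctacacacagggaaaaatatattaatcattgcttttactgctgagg
Col5a1, chr2:27886175-27886424, plus strand: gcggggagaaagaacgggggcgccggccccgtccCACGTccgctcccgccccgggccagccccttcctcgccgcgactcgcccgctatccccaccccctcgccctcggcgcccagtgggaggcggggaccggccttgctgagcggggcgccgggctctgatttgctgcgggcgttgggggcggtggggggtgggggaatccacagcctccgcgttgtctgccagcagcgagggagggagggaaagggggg
Col5a3, chr9:20815068-20815317, minus strand: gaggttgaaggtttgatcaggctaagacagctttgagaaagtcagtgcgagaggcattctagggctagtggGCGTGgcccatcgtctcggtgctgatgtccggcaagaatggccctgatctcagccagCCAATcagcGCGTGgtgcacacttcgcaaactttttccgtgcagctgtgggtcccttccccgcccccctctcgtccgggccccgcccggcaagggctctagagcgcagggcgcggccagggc
Col4a1 and Col4a2, chr8:11312801-11312830, plus strand: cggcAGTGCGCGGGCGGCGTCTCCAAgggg

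The Col3a1 stretch held TATAAA at -117 and neither ACGTG nor GCGTG, the Col5a1 stretch held ACGTG on the other strand at -216, and the Col5a3 stretch held GCGTG at -179 and -113 with CCAAT at -122. Col4a1 and Col4a2, whose windows each run into the other gene, held GCGTG at -171 and at -105 and CCAAT at -145 and at -32. No 2 of these matches overlapped, and no binding was measured.

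Type IV collagen of most basement membranes is made from Col4a1 and Col4a2, which lie head to head on chromosome 8 with starts that overlap by the 22 bases shown. Col4a1 had 1004, 539 and 943 CPM in wild-type normoxia, 1002, 1073 and 1018 in wild-type hypoxia, 846, 802 and 842 in ΔN-VEGF normoxia, and 2597, 2419 and 2459 in ΔN-VEGF hypoxia. Col4a2 had 1018, 548 and 973 CPM, 984, 1145 and 1015, 862, 712 and 849, and 2423, 2228 and 2263 in the same order of groups. For each gene the hypoxic ΔN-VEGF samples lay far above the rest, and the wild-type groups overlapped.

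Hypoxia raised Col4a1 3.00-fold (adjusted p = 3.7e-05) and Col4a2 2.85-fold (adjusted p = 8.1e-05) in ΔN-VEGF cells, with interactions of 1.27 (adjusted p = 0.029) and 1.21 (adjusted p = 0.04, all edgeR), which rose to adjusted p of at most 0.091 and 0.12 with 1 sample left out. In wild-type cells their log2 fold changes were 0.32 ± 0.18 and 0.31 ± 0.19 (adjusted p = 0.2 and 0.24). Col4a1 per Col4a2, per kilobase, stayed between 0.831 and 0.999 in all 12 samples, with group means of 0.869 ± 0.00810, 0.875 ± 0.0384, 0.916 ± 0.0719 and 0.959 ± 0.00736 (SD, n = 3). The ratios of hypoxic and normoxic ΔN-VEGF samples overlapped.

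The X-linked pair Col4a5 and Col4a6, which makes the type IV collagen of other basement membranes and also lies head to head, 1308 bases apart, did not rise. Col4a6 had 97.0, 43.3 and 94.3 CPM in wild-type normoxia, 48.5, 48.6 and 49.9 in wild-type hypoxia, 46.2, 42.2 and 48.5 in ΔN-VEGF normoxia, and 29.2, 28.3 and 27.8 in ΔN-VEGF hypoxia. The hypoxic ΔN-VEGF samples were the lowest, and replicate 2 of wild-type normoxia lay below wild-type hypoxia and within ΔN-VEGF normoxia. Col4a6 fell 1.60-fold in wild-type hypoxia (adjusted p = 0.041) and 1.61-fold in ΔN-VEGF hypoxia (adjusted p = 0.029, both edgeR), and these calls were kept in 1 and 7 of 12 fits that each left out 1 sample. Col4a5 had 154, 74.2 and 154 CPM, 116, 109 and 115, 102, 79.8 and 102, and 72.6, 71.0 and 70.3 in the same order of groups, and its log2 fold changes of -0.17 ± 0.22 and -0.41 ± 0.22 in wild-type and ΔN-VEGF hypoxia did not pass the test (edgeR adjusted p = 0.58 and 0.15). Without replicate 2 of wild-type normoxia they were -0.44 (adjusted p = 0.0016) and -0.41 (adjusted p = 0.00081).

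Col18a1, the source of a heparan sulfate proteoglycan of basement membranes, had 20.2, 4.02 and 19.0 CPM in wild-type normoxia, 7.53, 9.28 and 7.75 in wild-type hypoxia, 8.57, 5.19 and 8.80 in ΔN-VEGF normoxia and 12.2, 10.4 and 10.9 in ΔN-VEGF hypoxia. Replicate 2 was the lowest sample in each normoxia group. Of the rarer basement membrane chains, Col7a1 of anchoring fibrils rose 2.56-fold in ΔN-VEGF hypoxia (edgeR adjusted p = 0.001) at 0.332 to 1.22 CPM. Col15a1 had 14, 8 and 8 counts in wild-type normoxia, 12, 14 and 8 in wild-type hypoxia, 0, 0 and 2 in ΔN-VEGF normoxia and 9, 5 and 3 in ΔN-VEGF hypoxia, too few to give a fold.

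**Figure D4:**
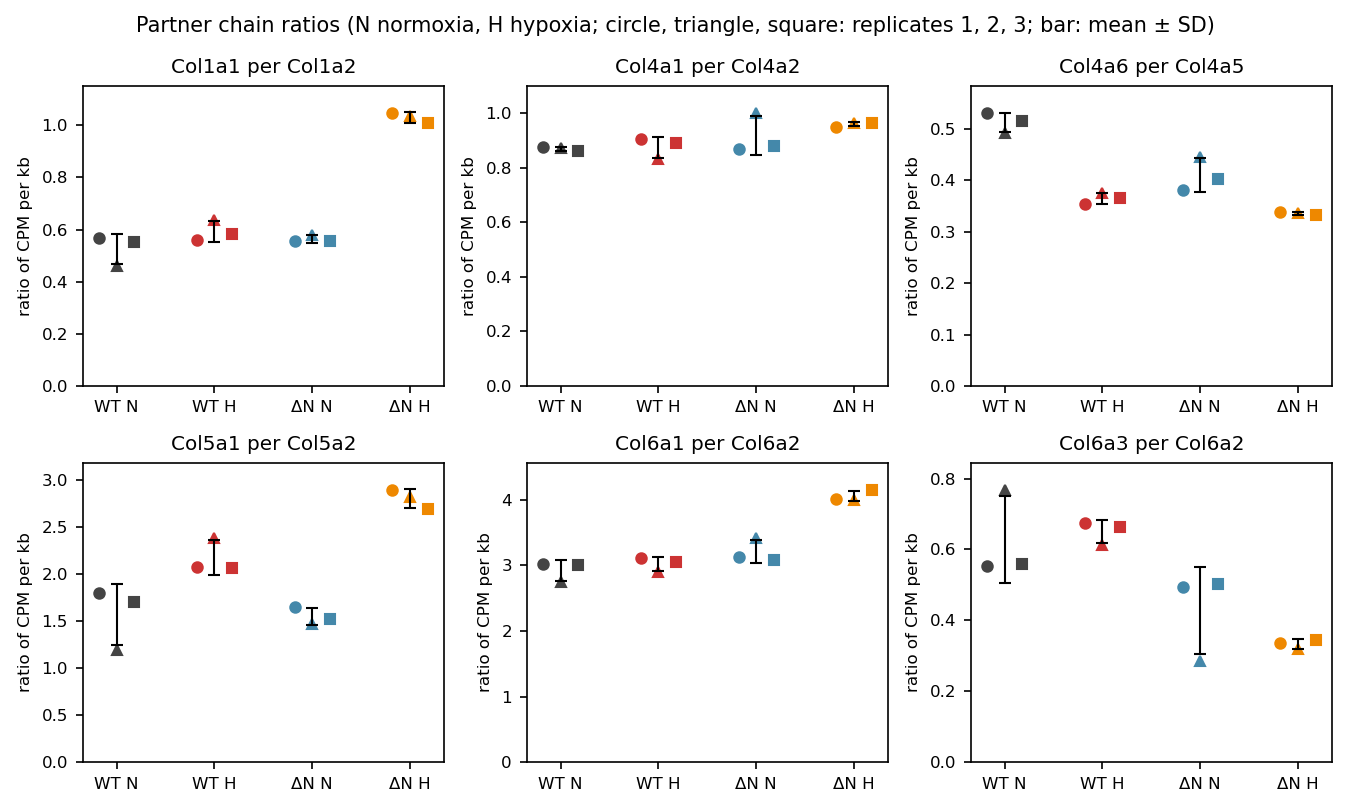
Ratio of CPM per kilobase of 2 partner chains (y axis, from 0) in each sample, with the groups and symbols of the plot of CPM values, and mean ± SD bars. Col1a1 per Col1a2 lies at 1.01 to 1.05 in ΔN-VEGF hypoxia and at 0.460 to 0.638 elsewhere, while Col4a1 per Col4a2 stays between 0.831 and 0.999.

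Among the FACIT chains Col12a1, which binds type I fibrils in tissue under strain, had the largest rise. It had 7.28, 5.99 and 8.07 CPM in wild-type normoxia, 53.0, 49.9 and 55.3 in wild-type hypoxia, 24.3, 11.1 and 22.2 in ΔN-VEGF normoxia, and 141, 143 and 146 in ΔN-VEGF hypoxia. No 2 groups overlapped. It rose 7.40-fold in wild-type (adjusted p = 6.7e-06) and 7.47-fold in ΔN-VEGF cells (adjusted p = 3.2e-06), and was higher in ΔN-VEGF cells 2.69-fold in normoxia (adjusted p = 0.0089) and 2.72-fold in hypoxia (adjusted p = 0.002, all edgeR). The interaction was 0.01 ± 0.34 (edgeR adjusted p = 0.99), and all 4 calls were kept in each of the 12 fits that left out 1 sample.

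Col16a1, a FACIT chain of fibroblasts, had 820, 490 and 768 CPM in wild-type normoxia, 1340, 1446 and 1348 in wild-type hypoxia, 596, 384 and 583 in ΔN-VEGF normoxia, and 2164, 2028 and 1943 in ΔN-VEGF hypoxia. Both hypoxia groups lay above both normoxia groups. The rise was 1.99-fold in wild-type (adjusted p = 0.0026) and 3.92-fold in ΔN-VEGF cells (adjusted p = 1.5e-05), and the interaction of 0.98 ± 0.28 did not pass the test (adjusted p = 0.081, all edgeR), while without replicate 2 of wild-type normoxia it was 1.16 and passed (adjusted p = 0.0004). Col20a1 rose in both lines at 0.302 to 2.66 CPM, 2.07-fold in wild-type (adjusted p = 0.04) and 4.43-fold in ΔN-VEGF cells (adjusted p = 0.00055, edgeR). Col14a1 rose 4-fold in ΔN-VEGF hypoxia (edgeR adjusted p = 0.00074), with 19, 20 and 24 counts against 8, 5 and 8. Col9a3 and Col22a1 fell there, Col9a3 from 35, 21 and 25 counts to 11, 8 and 4 (adjusted p = 0.0084), and Col22a1 from 17, 12 and 13 to 4, 4 and 2 (adjusted p = 0.012, both edgeR). Col9a3 shares 234 exonic bases with Tcfl5 on the other strand, so its reads are uncertain.

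Type VI collagen needs chains from Col6a1, Col6a2 and Col6a3. Col6a1 had 2669, 981 and 2464 CPM in wild-type normoxia, 1239, 1402 and 1259 in wild-type hypoxia, 2143, 3328 and 2080 in ΔN-VEGF normoxia, and 5342, 5110 and 5140 in ΔN-VEGF hypoxia. Replicate 2 was low in wild-type normoxia and high in ΔN-VEGF normoxia. In hypoxia Col6a1 was 3.999-fold higher in the ΔN-VEGF line (adjusted p = 0.0019), Col6a2 2.97-fold (adjusted p = 0.0036) and Col6a3 1.53-fold (adjusted p = 0.036, all edgeR), the last being kept in 4 of 12 fits with 1 sample left out and the others in 12.

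Col6a2 had 1680, 680 and 1562 CPM in wild-type normoxia, 756, 919 and 786 in wild-type hypoxia, 1301, 1855 and 1280 in ΔN-VEGF normoxia, and 2528, 2428 and 2354 in ΔN-VEGF hypoxia. Col6a3 had 1333, 751 and 1258 CPM, 732, 810 and 747, 923, 761 and 924, and 1220, 1110 and 1167 in the same order. In ΔN-VEGF hypoxia Col6a1 rose 2.06-fold (adjusted p = 0.014) and Col6a2 1.65-fold (adjusted p = 0.046, both edgeR, kept in 10 and 4 of 12 fits with 1 sample left out), while Col6a3 had a log2 fold change of 0.42 ± 0.18 (edgeR adjusted p = 0.068). In wild-type hypoxia Col6a3 fell 1.46-fold (adjusted p = 0.035, kept in 5 of 12 such fits), and Col6a1 and Col6a2 had log2 fold changes of -0.65 ± 0.31 and -0.67 ± 0.28 (adjusted p = 0.12 and 0.079, edgeR), or -0.97 and -0.98 (adjusted p = 0.00019 and 6.6e-05) without replicate 2 of wild-type normoxia.

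The chains of type VI collagen did not keep 1 ratio. Col6a3 per Col6a2, per kilobase, was 0.336, 0.318 and 0.345 in ΔN-VEGF hypoxia and 0.674, 0.613 and 0.662 in wild-type hypoxia, with no overlap. In normoxia it was 0.494, 0.285 and 0.502 in ΔN-VEGF cells and 0.55, 0.77 and 0.56 in the wild type, where replicate 2 had the highest value of all samples. Col6a1 per Col6a2 was 4.001 to 4.15 in ΔN-VEGF hypoxia and 2.74 to 3.41 in the other groups. Replicate 2 of ΔN-VEGF normoxia had the highest of these latter values for Col6a1 and the lowest of all samples for Col6a3.

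Col8a1, a network-forming chain of vessel walls, had 88.7, 91.6 and 96.6 CPM in wild-type normoxia, 62.6, 55.9 and 62.7 in wild-type hypoxia, 81.0, 113 and 85.9 in ΔN-VEGF normoxia and 68.3, 73.4 and 67.7 in ΔN-VEGF hypoxia. Hypoxic samples lay below normoxic ones in both lines, and it is the abundant chain that replicate 2 of wild-type normoxia did not place below both partners. It fell 1.53-fold in wild-type (adjusted p = 0.0025) and 1.34-fold in ΔN-VEGF cells (adjusted p = 0.013, edgeR). Col10a1 had 0.501 to 1.37 CPM in wild-type normoxia, with replicate 2 the highest, and 1.99 to 3.53 CPM in the other groups. It rose 3.84-fold in wild-type hypoxia (adjusted p = 0.0013) and had a log2 fold change of -0.02 ± 0.33 in ΔN-VEGF cells (adjusted p = 0.96), with an interaction of -1.96 ± 0.48 that did not pass the test (adjusted p = 0.05, all edgeR). Without replicate 2 of wild-type normoxia its log2 fold change in wild-type hypoxia was 2.58 in place of 1.94, and its interaction of -2.61 passed (edgeR adjusted p = 2.2e-05). Col10a1 overlaps Nt5dc1 on the other strand over 7105 bases, of which 18 are exonic in both. The kit does not mark strand, so the reads of Col10a1 are uncertain. Col17a1 of hemidesmosomes and Col28a1 were called in none of the 5 comparisons, and Col28a1 ranged from 1 to 29 counts within ΔN-VEGF normoxia.

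**Figure D5:**
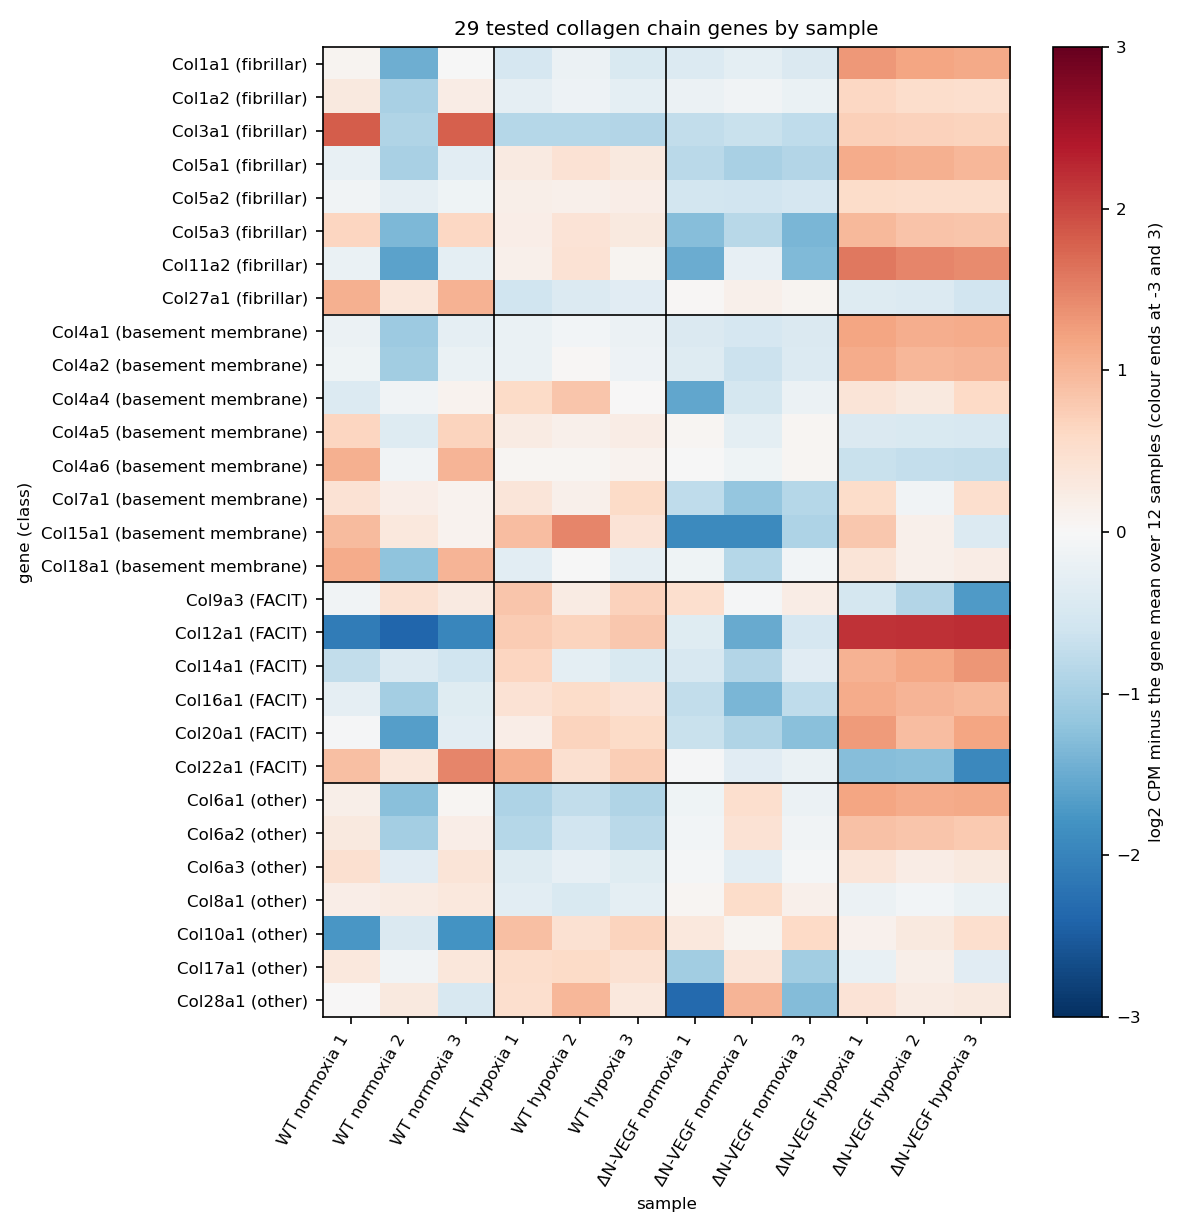
Log2 CPM of each of the 29 tested chains minus its mean over the 12 samples (colour), with genes in rows by class and samples in columns by group. The ΔN-VEGF hypoxia columns are red for most fibrillar chains, Col4a1, Col4a2, Col6a1 and Col6a2 and blue for Col4a5, Col4a6, Col9a3 and Col22a1, and replicate 2 of wild-type normoxia differs from its neighbours in most rows.

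Genes that process collagen were taken from a list of 53, of which 44 were tested. In wild-type hypoxia 18 of them rose and 10 fell, where 18.2% and 18.3% of all tested genes did, and in ΔN-VEGF hypoxia 23 rose and 7 fell, where 26.9% and 26.4% did. In hypoxia 16 were higher and 1 lower in ΔN-VEGF cells, beside 10.8% and 9.36% of all tested genes. The interaction was called for 5, each in the positive direction, beside 2.21% of all tested genes. Without replicate 2 of wild-type normoxia it was called for 27 in that direction and 2 in the other, beside 21.4% and 23% of all genes, and 20 rose and 16 fell in wild-type hypoxia, beside 27.1% and 26.9%. Of 12 tested genes for hydroxylation and glycosylation of the chains, 9 rose and 2 fell in wild-type hypoxia and 9 rose and 3 fell in ΔN-VEGF hypoxia, against the same shares of all genes. P4ha2, a catalytic subunit of prolyl 4-hydroxylase, had log2 fold changes of 3.81 (adjusted p = 2.5e-09) in the wild type and 4.47 in the deletion line (adjusted p = 6.4e-10, both edgeR). Plod2, a lysyl hydroxylase for cross-links, rose by 3.20 (adjusted p = 2.9e-07) and 4.32 (adjusted p = 2.8e-08), with an interaction of 1.12 (adjusted p = 0.031, all edgeR). In wild-type hypoxia, where these enzyme genes rose, 6 of 29 chains were called higher, beside 18.2% of all tested genes. They were Col5a1, Col5a2, Col12a1, Col16a1, Col20a1 and Col10a1, with no chain of type I or type VI among them.

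Small proteoglycans that bind fibrils form another group of the list. Their 6 tested members had a median log2 fold change of -2.72 in wild-type hypoxia, where 3 fell, against -0.07 over all tested genes, of which 18.3% fell. In ΔN-VEGF hypoxia their median was 0.44, and 1 rose, against -0.01 over all tested genes, of which 26.9% rose. Between the lines in hypoxia it was 2.73, with 4 higher in ΔN-VEGF cells, against -0.01 over all tested genes, of which 10.8% were higher. With replicate 2 of wild-type normoxia left out, 5 fell in wild-type hypoxia and 6 were higher between the lines, where 26.9% and 21.2% of all genes did so. Dcn, decorin, had 57.0, 10.8 and 54.8 CPM in wild-type normoxia, 6.13, 5.51 and 5.91 in wild-type hypoxia, 47.3, 79.1 and 46.7 in ΔN-VEGF normoxia, and 60.6, 60.4 and 61.7 in ΔN-VEGF hypoxia. Wild-type hypoxia was the lowest group without overlap, and replicate 2 of wild-type normoxia was nearest to it. The interaction for Dcn was 2.88 ± 0.66 (edgeR adjusted p = 0.041). Acta2 also moved with hypoxia, from 161 to 1014 CPM in wild-type normoxia to 2692 to 3112 CPM in wild-type hypoxia and from 476 to 901 CPM to 2480 to 3033 CPM in ΔN-VEGF cells, and its part in the collagen values was not tested. A list of 10 hypoxia-induced genes rose in 10 of 10 cases in each line, where 18.2% of all tested genes rose in the wild type and 26.9% in ΔN-VEGF cells.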

How the data were processed

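RNA of 12 samples (3 of each line and oxygen condition) was used. The authors prepared TruSeq libraries and deposited whole-number counts per gene, which were used as deposited. The submitters' processing notes name cutadapt 1.10, TopHat2 2.1.0, Bowtie2 2.2.6 and HTSeq 0.6.1, and coordinates are those of GRCm38. The kit does not mark strand. Groups and replicate numbers came from the sample labels, and p-values measure the spread between these samples, which the labels call triplicates. The study's general statement that experiments were repeated does not say whether the sequenced samples were separate cultures.

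Groups were tested in R 4.3.3 by edgeR 4.0.16 (with TMM scaling, filterByExpr, 1 mean per group over 12 samples, quasi-likelihood test, Benjamini-Hochberg adjustment over all tested genes). CPM used the TMM-scaled library size. Collagen genes were found by name, and values per sample are given for genes with a group mean of at least 10 CPM or a called interaction, and other chains are given by range or by their counts. Of the processing list at most the 3 largest changes per comparison were named. Genes outside these rules, among them those singled out from the marker lists, were chosen after their values were seen. The members and lists were chosen with earlier results of these data known. Exon lengths came from GENCODE M21, in which all 44 genes matched by identifier and coordinates.

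Replicate numbers were checked by the correlation of deviations from group means. Between the normoxia groups same-numbered samples correlated at 0.378, 0.498 and 0.355, so the blocked count is given there. Elsewhere 1 of 15 such pairs exceeded 0.1, and those between the hypoxia groups were at 0.021, 0.109 and 0.088. Replicates differed by a chi-square of 2.94 to 370 per gene, above the 1 expected of sampling. In every group replicate 2 differed more from replicates 1 and 3 than these did from each other. In wild-type hypoxia the values were 16.9 and 18.2 against 2.94, and in ΔN-VEGF hypoxia 8.31 and 8.79 against 4.63. DESeq2 1.42.0, other scalings, other filters, the block and leaving out samples were alternatives. The code was tested on simulated data.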

Additional observations from a re-analysis of the deposited data

Results flagged for a closer look

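Of the 5 collagen genes whose response to hypoxia differed between the lines in edgeR's interaction test, Col3a1 differed by 3.62 on the log2 scale (adjusted p = 0.023), Col5a1 by 1.14 (adjusted p = 0.028), Col5a2 by 0.74 (adjusted p = 0.007), Col4a1 by 1.27 (adjusted p = 0.029) and Col4a2 by 1.21 (adjusted p = 0.04). Hypoxia lowered Col3a1 in the wild type and raised it in the deletion line, Col5a1 and Col5a2 rose in both, and Col4a1 and Col4a2 rose in ΔN-VEGF cells and did not pass the test in the wild type.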

How the results depend on the processing

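RLE size factors changed no count of calls and no call on a chain of at least 10 CPM. The replicate block was also fitted outside the normoxia comparison, where few same-numbered samples deviated together. With it 11 chains were higher and 4 lower between the lines in hypoxia, where 22% of all genes were called. Without it there were 13 and 3, where 20.1% were called. The other comparisons had the same number of chains in each direction as without it. All genes were then called at 38.6% in wild-type hypoxia, 55.5% in ΔN-VEGF hypoxia and 3.29% for the interaction. Below, the share of all genes called in the same setting stands in brackets after the number of chains. The interaction had 16 (4.91%) with DESeq2 and 10 (1.47%) with no filter on low counts, against 5 (3.36%). Both settings kept genes of low count, with 42 chains in place of 29. Their shares are therefore not over the same genes as the 3.36%. Total counts gave 10 (26.8%) against 16 (20.1%) for the lines in hypoxia. A fold change of at least 2 as well gave 5 (15.7%), and the 6 samples alone 6 (23.8%), against 11 (36.5%) in wild-type hypoxia. The lines in normoxia had 4 (4.37%) with the replicate block and 0 (0.108% and 0.00718%) with only the 6 samples of the comparison, without or with the block, the latter chosen after seeing the data, against 7 (4.36%). With both normoxia samples numbered 2 left out, wild-type hypoxia had 20 (65.3%), the lines in normoxia 25 (53.6%) and the interaction 23 (52.8%). Leaving out 1 sample at a time gave 8 to 18 in wild-type hypoxia (26.8% to 54%), 17 to 27 in ΔN-VEGF hypoxia (42.9% to 67.1%), 1 to 20 for the lines in normoxia (1.1% to 48.9%), 10 to 21 for the lines in hypoxia (10.1% to 42.4%) and 1 to 20 for the interaction (0.493% to 44.4%), each upper value being that without replicate 2 of wild-type normoxia, where 30 chains passed the filter, so that 27 includes 1 riser beyond the 29 chains counted in the text. The interaction kept Col5a2 alone when any sample but the normoxia samples numbered 2 was left out. Some values turned sign. With 1 sample left out, Col5a3 in wild-type hypoxia ran from -0.33 to 0.34, Col4a1 between the lines in normoxia from -0.22 to 0.16 and the Col4a6 interaction from -0.19 to 0.27, each turned value being that without replicate 2 of wild-type normoxia. With both samples numbered 2 left out these were -0.33, -0.20 and 0.22, and Col6a1 and Col6a2 between the lines in normoxia were -0.27 and -0.32. The cause of these shifts was not tested. Genes under about 1 CPM rest on few counts, and depth limits what can be said of the 15 untested chains.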
